A study of Mus musculus with 20 samples.

Results

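The small nuclear RNAs U1, U2, U12, U5, U6 and U7 and the nucleolar RNA U3 were followed through the probe sets of an expression array in mouse embryo fibroblasts that lose Upstream Binding Factor (UBF). Probe sets were taken when all of their gene symbols in the array annotation begin with Rnu, together with the U2 probe sets, which list Rnu2-10 and the neighbouring gene Rdm1. This gave 25 of the 35556 probe sets on the array. Rows that hold identical values were counted once, which left 13 distinct probe sets, and 10 of these exceeded the 40th percentile of each of the arrays. They are 3 U1 probe sets (called U1 set A, B and C here, each listing Rnu1b1, Rnu1b2 and Rnu1b6), 4 U2 probe sets (U2 set A to D, each listing Rdm1 and Rnu2-10), 1 for U12 (Rnu12), 1 for U3a (Rnu3a) and 1 for U3b (Rnu3b1, Rnu3b2, Rnu3b3 and Rnu3b4). Their values describe 5 RNAs, with U3a and U3b counted apart though both are U3, and not 10 independent genes. The probe sets of U5g, U6 and U7 exceeded that percentile on 1, 0 and 0 of 20 arrays.

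Most introns are removed by the major spliceosome, in which U1 recognizes the 5′ splice site and U2 the branch point. U12 takes the part of U2 in the minor spliceosome, which removes a rare class of introns. U3 belongs to the SSU processome and guides the early cleavages of the pre-rRNA, whose synthesis by RNA polymerase I depends on UBF. Apart from U6, a product of RNA polymerase III, these RNAs are made by RNA polymerase II, and they carry modified caps and no poly(A) tail.

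Cells came from E14.5 embryos and all carried homozygous ER-Cre, a recombinase that enters the nucleus when 4-hydroxytamoxifen (4-HT) is given. There were 4 lines: Ubf fl/fl and Ubf wt/wt fibroblasts immortalized with the SV40 T antigens (iMEFs), and Ubf fl/fl and Ubf wt/wt primary fibroblasts (MEFs). Every line, the wt/wt controls included, was given 50 nM 4-HT for 4 h. The arrays of each line are labelled 0, 24, 48, 72 and 96 h post 4-HT. In other assays the paper calls its 0 h fl/fl cells untreated. If so here, a change from 0 h within a line includes any effect of 4-HT, which was not tested. Each genotype was 1 line per cell type, and each line gave 1 array per time, so that the 20 arrays contain no replicates and their small number limits precision. An effect of Ubf loss and a drift peculiar to 1 line cannot be told apart. A level below is the authors' RMA value on the log2 scale. Levels of one probe set were compared between arrays and never with those of another probe set. In total RNA of cultured cells, fewer cells of a type and less RNA per cell cannot be told apart.

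Ubtf, the gene for UBF, read 10.01 to 10.62 in fl/fl iMEFs, against 9.49 to 10.45 in wt/wt iMEFs, and 10.53 to 10.65 in fl/fl MEFs, against 10.22 to 10.75 in wt/wt MEFs. Its late effect was 0.13 ± 0.18 in iMEFs (SE, limma adjusted p = 0.694) and 0.36 in MEFs, so this probe set did not mark the floxed lines, and whether its probes lie in the deleted exons was not tested. All 12 fibroblast markers were over the filter, with a mean log2 level of 9.95 to 10.5 on the iMEF arrays and 12.2 to 12.6 on the MEF arrays. All 12 macrophage markers were over it too, at 6.02 to 6.50 in iMEFs and 8.54 to 9.86 in MEFs. The fl/fl iMEF array at 24 h stood apart in lowered small RNAs and in raised features. On it 75 of 235 small RNA features lay at least 1 below the median of that line's other arrays, against 11 at most on any other array, and 782 of all 17530 features lay at least 1 above it, against 291 at most on any other array. In lowered features other arrays were more extreme. Of all features, 189 lay at least 1 below on it, against 632 on the fl/fl MEF array and 480 on the fl/fl iMEF array at 96 h. The late effect is given below with and without the 24 h gap of iMEFs, which leaving out this array or its wt/wt partner removes alike.

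In iMEFs the level of every one of the 10 probe sets dipped at 24 h in fl/fl cells and was at its highest at 96 h, and in wt/wt cells the dip was shallower. For U1 set A the fl/fl iMEF arrays read 10.01, 7.95, 10.04, 10.92 and 11.01 at 0, 24, 48, 72 and 96 h, against 10.53, 9.73, 10.11, 10.32 and 11.22 on the wt/wt iMEF arrays. U1 set B read 10.70, 8.60, 10.71, 11.59 and 11.67 in fl/fl iMEFs, against 11.20, 10.44, 10.78, 10.97 and 11.90 in wt/wt iMEFs. U1 set C read 10.69, 8.40, 10.62, 11.54 and 11.60 in fl/fl iMEFs, against 11.17, 10.27, 10.83, 10.96 and 12.03 in wt/wt iMEFs. For all 3 U1 probe sets the fl/fl array was above the wt/wt array of the same time at 72 h alone, and the ranges of both genotypes overlapped.

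U2, which pairs with the branch point, was above the control at all late times. U2 set A read 12.78, 11.27, 12.86, 13.11 and 13.23 in fl/fl iMEFs, against 12.96, 12.19, 12.64, 12.54 and 12.96 in wt/wt iMEFs. U2 set B read 12.72, 11.19, 12.80, 13.11 and 13.24 in fl/fl iMEFs, against 12.95, 12.20, 12.54, 12.53 and 12.91 in wt/wt iMEFs. All 4 U2 probe sets thus lay below the control at 0 and 24 h and above it at 48, 72 and 96 h. U2 set C read 12.76, 11.13, 12.76, 13.17 and 13.24 in fl/fl iMEFs, against 12.94, 12.14, 12.52, 12.44 and 12.92 in wt/wt iMEFs. U2 set D read 12.58, 11.10, 12.70, 12.90 and 13.01 in fl/fl iMEFs, against 12.77, 12.001, 12.40, 12.33 and 12.73 in wt/wt iMEFs.

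U12 of the minor spliceosome read 9.02, 8.18, 9.18, 9.86 and 10.28 in fl/fl iMEFs, against 9.39, 8.82, 8.77, 8.83 and 9.53 in wt/wt iMEFs. Its fl/fl levels at 72 and 96 h were above all 5 wt/wt levels. U3a read 9.59, 8.17, 9.96, 10.44 and 10.75 in fl/fl iMEFs, against 10.10, 9.49, 9.08, 9.47 and 10.52 in wt/wt iMEFs. U3b read 10.48, 9.25, 10.74, 11.05 and 11.21 in fl/fl iMEFs, against 10.62, 10.27, 10.16, 10.20 and 10.87 in wt/wt iMEFs. Both U3 probe sets were below the control at 0 and 24 h and above it at 48, 72 and 96 h.

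**Figure D1:**
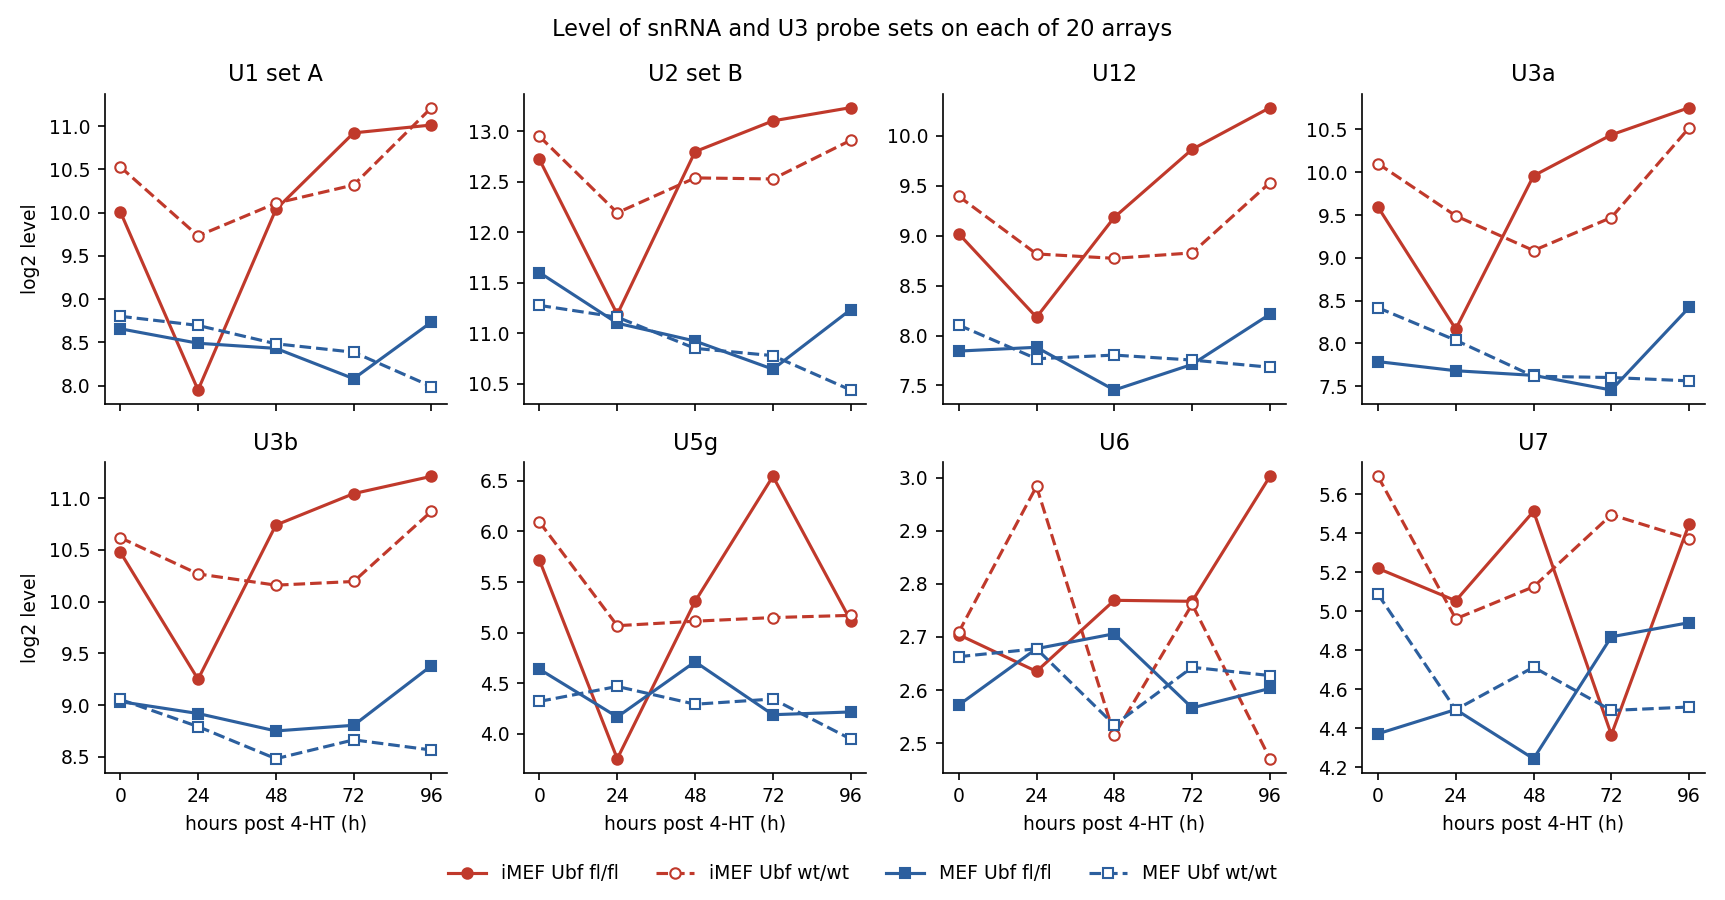
Log2 level of U1 set A, U2 set B, U12, U3a, U3b, U5g, U6 and U7 (y axis, own range in each panel) against hours post 4-HT (x axis), 1 point per array, with fl/fl as filled and wt/wt as open symbols, iMEFs in red and MEFs in blue. In the first 5 panels the fl/fl iMEF line has its lowest point at 24 h and its highest at 96 h, and at each time the iMEF points lie above the MEF points, except for U1 set A at 24 h in fl/fl cells. U5g, U6 and U7 were mostly under the 40th percentile of their arrays.

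The dip at 24 h was deepest in fl/fl iMEFs. There, 24 h was the lowest of the 5 times for 10 of 10 probe sets (30.6% of all 17530 features tested), and the level was at least 1 below that at 0 h for 9 of 10 (0.354% of all features), the exception being U12. The median over the 10 probe sets of the change between 0 and 24 h was -1.52 in fl/fl iMEFs and -0.76 in wt/wt iMEFs. Over 21 box H/ACA snoRNA probe sets it was -1.34 in fl/fl and -0.63 in wt/wt iMEFs. Over 29 box C/D snoRNA probe sets it was -0.86 in fl/fl and -0.96 in wt/wt iMEFs, so there the dip was not deeper in fl/fl cells. In wt/wt iMEFs 24 h was the lowest time for 7 of 10 (22.3% of all features), U12, U3a and U3b having their lowest level at 48 h. The fl/fl levels at 48, 72 and 96 h were all above 0 h for 8 of 10 (19.4% of all features), with U1 set C and U2 set C just under it at 48 h, and 96 h was the highest time for 10 of 10 (26% of all features).

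Set relative to 0 h, the log2 difference between fl/fl and wt/wt iMEFs had a median over the 10 probe sets of -0.83 at 24 h, 0.47 at 48 h, 1.03 at 72 h (2.04-fold) and 0.47 at 96 h. The medians over all features were 0.02, -0.02, -0.06 and -0.07. Among other small RNAs the median at 72 h was 1.69 over 29 box C/D and 1.62 over 21 box H/ACA snoRNA probe sets. It was 0.97 over 3 scaRNA probe sets and 0.33 over 8 probe sets of RNA polymerase III transcripts. At 0 h itself the fl/fl level was under the wt/wt level for all 10 probe sets, by a median of -0.30. At 72 h the difference was largest for U3a, at 1.47 (2.77-fold), and for U12, at 1.41 (2.66-fold). It was 1.06 to 1.13 for the U1 probe sets, 0.99 for U3b and 0.75 to 0.91 for the U2 probe sets. It reached 1 in 5 of 10 (1.33% of all features), was above 0 at 48, 72 and 96 h in 10 of 10 (20.6%), and had its highest value at 72 h in 10 of 10 (14.1%). At 96 h the U12 difference was 1.12, whereas the U1 probe sets were at 0.05 to 0.32.

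In MEFs the fl/fl level was above the wt/wt level at 96 h for all 10 probe sets, and the wt/wt levels drifted down over the days. U1 set A read 8.66, 8.49, 8.43, 8.08 and 8.74 in fl/fl MEFs, against 8.80, 8.70, 8.48, 8.39 and 7.99 in wt/wt MEFs. U2 set B read 11.60, 11.10, 10.92, 10.65 and 11.24 in fl/fl MEFs, against 11.28, 11.16, 10.85, 10.78 and 10.44 in wt/wt MEFs. U12 read 7.84, 7.88, 7.45, 7.71 and 8.21 in fl/fl MEFs, against 8.10, 7.77, 7.80, 7.75 and 7.68 in wt/wt MEFs. For these 3 the gap in favour of the fl/fl array was widest at 96 h. U3a read 7.79, 7.68, 7.63, 7.46 and 8.42 in fl/fl MEFs, against 8.42, 8.04, 7.62, 7.60 and 7.56 in wt/wt MEFs. U3b read 9.03, 8.92, 8.75, 8.80 and 9.38 in fl/fl MEFs, against 9.05, 8.79, 8.48, 8.66 and 8.56 in wt/wt MEFs. U3a was highest at 96 h in fl/fl MEFs and at 0 h in wt/wt MEFs.

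The other U1 and U2 probe sets ran with these in MEFs. U1 set B lay at 8.73 to 9.35 in fl/fl MEFs and at 8.63 to 9.46 in wt/wt MEFs, and U1 set C at 8.57 to 9.24 in fl/fl MEFs and at 8.40 to 9.22 in wt/wt MEFs. U2 set A lay at 10.74 to 11.68 in fl/fl MEFs and at 10.53 to 11.35 in wt/wt MEFs. U2 set C lay at 10.44 to 11.51 in fl/fl MEFs and at 10.40 to 11.06 in wt/wt MEFs, and U2 set D at 10.59 to 11.51 in fl/fl MEFs and at 10.41 to 11.18 in wt/wt MEFs. In all of them the ranges of both genotypes overlapped.

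In wt/wt MEFs the levels at 48, 72 and 96 h were all under that at 0 h for 10 of 10 (41.6% of all features), 96 h was the lowest time for 9 of 10 (25.5%), and each time lay below the one before for 8 of 10 (5.65%), the exceptions to the last being U12 and U3b. In fl/fl MEFs the late levels were all under 0 h for the 4 U2 probe sets only (23.9% of all features). Relative to 0 h, the median log2 difference between fl/fl and wt/wt MEFs was -0.07 at 24 h, -0.05 at 48 h, -0.17 at 72 h and 0.81 at 96 h (1.76-fold), against 0.16 over all features at 96 h. The difference was highest at 96 h in 10 of 10 (46% of all features) and was above 0 at all late times for U3a and U3b alone (38.3%). At 96 h it was 1.49 for U3a, 0.84 for U3b, 0.79 for U12, 0.86 to 0.89 for the U1 probe sets and 0.10 to 0.47 for the U2 probe sets.

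**Figure D2:**
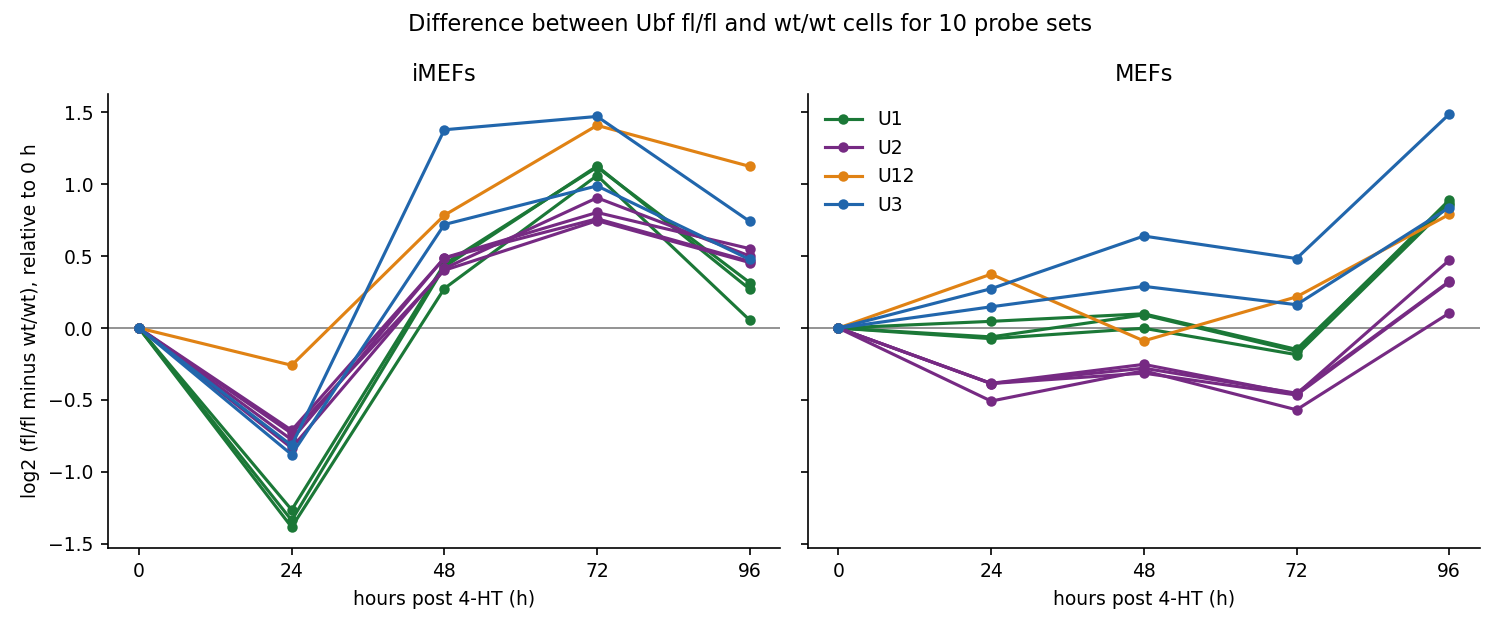
Log2 difference between fl/fl and wt/wt cells relative to 0 h (y axis) against hours post 4-HT (x axis) for the 10 probe sets, iMEFs on the left and MEFs on the right, 1 line per probe set coloured by RNA. In iMEFs all lines are below 0 at 24 h and highest at 72 h (median 1.03), and in MEFs all are highest at 96 h (median 0.81), with the U2 lines below 0 at 24, 48 and 72 h.

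The late effect of Ubf loss was taken as the mean gap between fl/fl and wt/wt cells over the late times (48, 72 and 96 h) less the mean gap over the early times (0 and 24 h), and was fitted with limma over all 17530 features. Its error is the scatter between times and not between cultures. The later of the early times is not a time before UBF loss. By then, the paper reports, the floxed exons were fully excised and UBF protein was already lowered. The fl/fl dip at 24 h lies in the baseline and raises the late effect in iMEFs (median 1.16, and 0.61 without the 24 h gap). In iMEFs the late effect was positive for 10 of 10 probe sets (44.8% of all features), and none passed. By limma 0 of 10 had an adjusted p under 0.05 (0.285% of all features were called higher), and 10 of 10 had an unadjusted p under 0.05 (6.55%). U3a gave 1.61 ± 0.35 (SE, 3.04-fold, adjusted p = 0.0665), U12 gave 1.24 ± 0.27 (2.36-fold, adjusted p = 0.0672) and U3b gave 1.17 ± 0.28 (2.25-fold, adjusted p = 0.0765). The U1 probe sets gave 1.16 to 1.28 (adjusted p = 0.124 to 0.170) and the U2 probe sets 0.90 to 1.02 (adjusted p = 0.0978 to 0.117). The effect was at least 1 in 8 of 10 (0.764% of all features), U2 set A and U2 set D being below. The median over the 10 probe sets was 1.16, beside -0.05 over all features, 1.43 over 29 box C/D snoRNA probe sets and 1.38 over 21 box H/ACA snoRNA probe sets.

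These values depended on single times. Without the gap between fl/fl and wt/wt iMEFs at 24 h the median late effect in iMEFs was 0.61, positive in 10 of 10. Leaving out the fl/fl or the wt/wt array of that time gives this same fit, so the value does not single out the fl/fl array. Without either iMEF array at 0 h the median was 1.53. Without either MEF array at 96 h, which leaves the iMEF estimates as they were and changes only their error, 5 of 10 passed (U2 set B, U2 set D, U12, U3a and U3b). The share of all features called under this setting is not given here, so the count cannot be read as particular to these probe sets. In fl/fl iMEFs alone the mean of the late times lay above 0 h by a median of 0.54, and in wt/wt iMEFs it lay below 0 h, at a median of -0.27.

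In MEFs the late effect was 0.73 ± 0.35 for U3a (SE, limma adjusted p = 0.746), 0.36 ± 0.28 for U3b, 0.12 ± 0.27 for U12, 0.25 to 0.30 for the U1 probe sets and between 5.7e-05 and 0.11 for the U2 probe sets. It was above 0 in 10 of 10 (56.8% of all features), and 0 of 10 passed in limma, adjusted (0% of all features) or at an unadjusted p under 0.05 (3.68%). The median was 0.18, beside 0.05 over all features. Without either MEF array at 96 h it was -0.09. The late effect on macrophage markers was above 0 for 11 of 12 in MEFs (median 0.66) and for 9 of 12 in iMEFs (median 0.25). On fibroblast markers it was above 0 for 10 of 12 in MEFs (median 0.10) and for 1 of 12 in iMEFs (median -0.17). The part of both marker lists in the MEF and iMEF results was not tested.

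**Figure D3:**
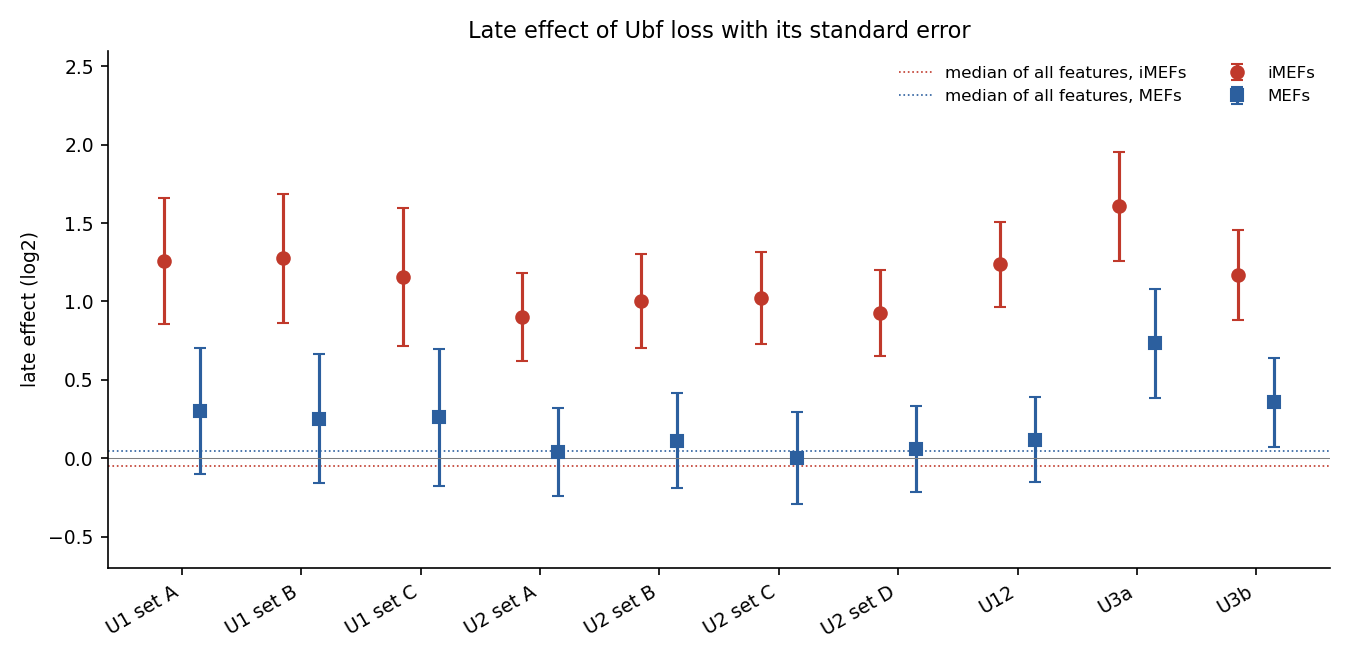
Late effect of Ubf loss on the log2 scale (y axis) for each of the 10 probe sets (x axis), with points for the estimate and bars for its standard error, iMEFs as red circles and MEFs as blue squares, and dotted lines for the median of all features. The iMEF estimates lie between 0.90 and 1.61, and the MEF estimates between 5.7e-05 and 0.73.

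The late effect was larger in iMEFs than in MEFs by 0.81 (U3b) to 1.12 (U12), and this difference was itself tested. It passed for 0 of 10 (0% of all features), the lowest limma adjusted p being 0.598 for U12, and 3 of 10 had an unadjusted p under 0.05 (2.24% of all features), namely U12, U2 set C and U2 set D. The median of the difference was 0.89, and 0.48 without either iMEF array at 24 h. The mean of the late effects in both cell types was 1.17 ± 0.25 for U3a (SE, limma adjusted p = 0.0979) and 0.47 to 0.78 for the others. None passed (0 of 10, 0% of all features), and 10 of 10 had an unadjusted p under 0.05 (7.85%). The median of the mean effect was 0.69, and 0.40 without either iMEF array at 24 h. With the cell types standing in for replicates, the effect at 72 h relative to 0 h was 0.98 ± 0.48 for U3a and 0.81 ± 0.40 for U12 (SE, limma adjusted p = 0.998 each). It was called for 0 of 10 (0% of all features), and 0 of 10 had an unadjusted p under 0.05 (1.29%).

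The level of these RNAs also differed between the cell types. Averaged over 10 arrays each, every probe set was higher in iMEFs than in MEFs, by 1.36 for U12 (2.57-fold) up to 1.94 for U3a (3.83-fold). U1 set C was higher by 1.88, U2 set C by 1.74 and U3b by 1.64. For each of the 10 probe sets, 9 of 10 iMEF arrays lay above the highest MEF array (19% of all features reach at least that), and the remaining one was the fl/fl array at 24 h. Complete separation was met by 0 of 10 (10.3% of all features). U12 ranged over 8.18 to 10.28 in iMEFs and 7.45 to 8.21 in MEFs, and U3a over 8.17 to 10.75 in iMEFs and 7.46 to 8.42 in MEFs. The median over the 10 probe sets was 1.67, beside 0.09 over all features, 1.26 over the box C/D and 1.37 over the box H/ACA snoRNA probe sets. The iMEF and MEF arrays come from 2 lines each, and this difference was not tested. It goes with the lower levels of fibroblast and macrophage markers in iMEFs given above, whose part was not tested.

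**Figure D4:**
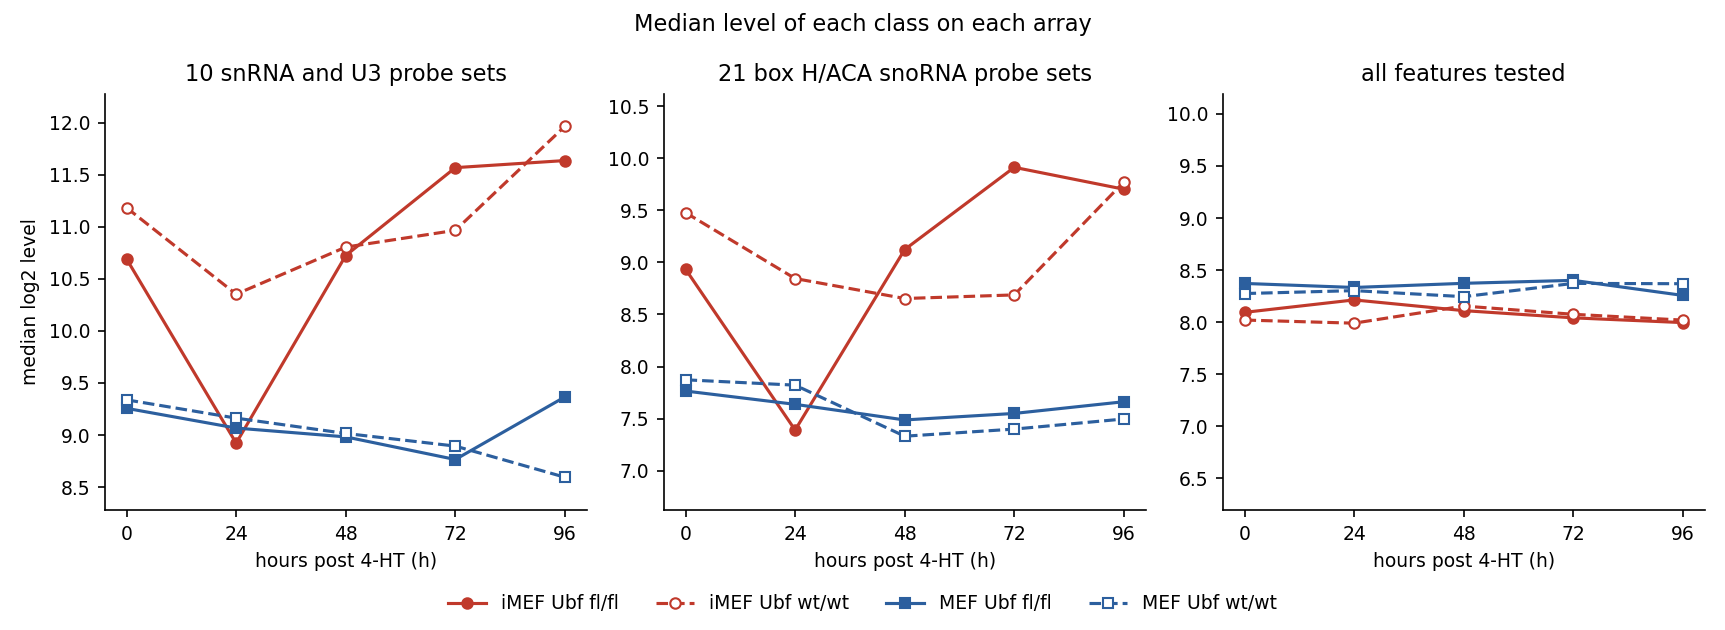
Median log2 level on each array (y axis, own range of equal height in each panel) against hours post 4-HT (x axis) for the 10 snRNA and U3 probe sets, 21 box H/ACA snoRNA probe sets and all 17530 features, with fl/fl as filled and wt/wt as open symbols. The first and second panels show the dip of fl/fl iMEFs at 24 h and the gap between iMEFs and MEFs, and the medians of all features are nearly flat.

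U5g, U6 and U7 were mostly under the filter and were not among the features tested. U5g, a U5 RNA of the tri-snRNP, read 5.72, 3.76, 5.31, 6.54 and 5.12 in fl/fl iMEFs, against 6.09, 5.07, 5.11, 5.15 and 5.17 in wt/wt iMEFs. It lay at 4.17 to 4.71 in fl/fl MEFs and at 3.95 to 4.47 in wt/wt MEFs. Its low at 24 h and its high at 72 h fell on the same fl/fl iMEF arrays as the dip and the largest difference of the RNAs above. Tested without the filter, its late effect was 1.36 ± 0.42 in iMEFs (SE, limma adjusted p = 0.117) and 0.17 in MEFs. U6, which pairs with U2 at the catalytic core, stayed between 2.47 and 3.002 on all 20 arrays, with a late effect of 0.44 ± 0.19 in iMEFs (limma adjusted p = 0.213). U7, which serves the 3′ end processing of histone mRNAs, read 4.37 to 5.51 in fl/fl iMEFs and 4.96 to 5.69 in wt/wt iMEFs, and its late effect in iMEFs was -0.03 ± 0.43 (limma adjusted p = 0.972).

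The 10 probe sets moved together over the arrays. Probe sets of the same RNA correlated with Pearson's r of at least 0.998 over 20 arrays (9 pairs), and probe sets of different RNAs with 0.93 to 0.98 (36 pairs). With each line's own mean subtracted, pairs of different RNAs were at 0.81 to 0.98. The highest pair both times was U3a with U3b (0.985 and 0.978), which are both U3. With line means subtracted the next highest pair was U1 set B with U3b, at 0.94. These values describe arrays that share lines, times and normalization. Relative to 0 h, the difference between fl/fl and wt/wt iMEFs at 24 h was -1.26 to -1.39 for the U1 and -0.71 to -0.83 for the U2 probe sets, and at 96 h it was 0.05 to 0.32 for U1 and 0.46 to 0.55 for U2. Whether U1 and U2 differ was not tested.

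Of 16623 features with 1 gene symbol, those most like the mean of the snRNA and U3 probe sets over the 20 arrays were 2 probe sets of the H/ACA snoRNA Snora3 (Pearson's r 0.991 and 0.989), n-R5s136, a 5S rRNA gene (0.987), the C/D snoRNA Snord15a (0.986) and the H/ACA snoRNA Snora7a (0.985). With line means subtracted they were both Snora3 probe sets (0.966 and 0.962), Snord35a (0.965), Snora74a (0.960) and Snord15a (0.959). Among the 50 most alike, 28 were snoRNA or scaRNA features over the 20 arrays and 31 with line means subtracted, out of 53 such features in all.

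Rdm1, a gene for a recombination protein that shares the annotation of the U2 probe sets, has a probe set of its own. It read 9.58, 8.75, 9.77, 10.37 and 9.71 in fl/fl iMEFs, against 9.01, 8.65, 8.98, 9.51 and 9.89 in wt/wt iMEFs, and it lay at 6.98 to 7.39 in fl/fl MEFs and at 7.23 to 7.64 in wt/wt MEFs. Its late effect was 0.16 ± 0.30 in iMEFs (SE, limma adjusted p = 0.782) and -0.02 in MEFs. Over the 20 arrays it correlated with the U2 probe sets at Pearson's r of 0.93 to 0.94, and with line means subtracted at 0.76. The share of Rdm1 transcripts in the U2 values was not tested.

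The mRNAs for proteins that make, carry and bind these RNAs were looked at in 9 lists of 160 genes, of which 151 were measured. Where a protein is named below, the value is that of its mRNA, and no protein was measured on these arrays. By limma 0 of 151 passed in any of the late contrasts. In iMEFs 0.285% of all features were called higher and 0.0513% lower, and the shares with an unadjusted p under 0.05 were 6.55% higher and 15.7% lower. In the list for snRNA gene transcription, 0 of 19 had an unadjusted p under 0.05 as higher and 2 of 19 as lower, and the values ran between 0.16 ± 0.22 for Snapc1, a subunit of the snRNA activating complex, and -0.90 ± 0.33 for Ice1, of the little elongation complex (SE). In the Integrator list, the complex that cleaves the 3′ end of nascent snRNAs, the counts were 0 and 6 of 17, between 0.36 ± 0.19 for Ints5 and -1.26 ± 0.27 for Ints12 (limma adjusted p = 0.0641). In the list for export, cap and SMN assembly they were 0 and 7 of 21, between 0.24 ± 0.13 for Gemin4, of the SMN complex, and -1.06 ± 0.38 for the import receptor Kpnb1.

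Among mRNAs for proteins of the particles themselves, the Sm ring had 0 and 0 of 6 with an unadjusted p under 0.05 as higher and as lower. The values ran between -0.04 ± 0.22 for Snrpd3 and -0.38 ± 0.28 for Snrpe. U1 proteins had 0 and 1 of 7, between 0.17 ± 0.19 for Snrpa and -0.77 ± 0.37 for Luc7l3. Over all features 44.8% lay above 0 in iMEFs, and the counts above 0 ran from 0 of 6 in the Sm ring to 16 of 37 in the SSU processome list. U2 proteins had 1 and 5 of 14, between 0.49 ± 0.16 for Sf3b4 and -1.42 ± 0.44 for Snrpb2, which binds a stem-loop of U2 (limma adjusted p = 0.118). Minor spliceosome proteins had 0 and 2 of 10, between 0.10 ± 0.21 for Snrnp35 and -0.86 ± 0.35 for the helicase Dhx15.

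The mRNAs for proteins of the U3 particle and the SSU processome had 4 and 2 of 37 with an unadjusted p under 0.05 as higher and as lower in iMEFs. Rrp9, which binds U3 itself, was at 1.07 ± 0.29 in iMEFs (SE, limma adjusted p = 0.0902), and its mean over both cell types was 1.11 (limma adjusted p = 0.0979). Nol11 was at -1.10 ± 0.30 in iMEFs. In the list for surveillance and decay of small RNAs the counts were 2 and 4 of 20, between 0.87 ± 0.25 for the exosome subunit Exosc5 and -1.21 ± 0.37 for Larp7, which binds the RNA polymerase III transcript 7SK. The median late effect in iMEFs was below 0 in all 9 lists, from -0.35 in the export list to -0.14 in the SSU processome list, beside -0.05 over all features.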

How the data were processed

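The genes are 165 to 166 nt long for U1, 187 nt for U2, 150 nt for U12, 212 nt for U3a and 215 to 218 nt for U3b. RNA was extracted with acid phenol and passed over silica columns. How well RNAs of these lengths were retained was not measured, nor whether retention differed between arrays. The authors deposited 1 log2 value per probe set and array, made by RMA-sketch normalization over the 20 arrays in Affymetrix Power Tools 1.14.4 (per the submitters' processing notes). Gene symbols came from the annotation of the Mouse Gene 1.0 ST array, although the methods give Mouse Gene 2.0 ST as the type. The detection filter in the study's methods was replaced by a value over the 40th percentile of the array on at least 2 arrays, which kept 17530 distinct listed probe sets of 23168.

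The late effect was fitted with limma 3.58.1 in R 4.3.3, with terms for line, time within cell type and fl/fl by late time in each cell type (6 residual degrees of freedom, 4.24 from the prior). A second model took each time relative to 0 h and used the cell types as replicates, with 4 residual degrees of freedom. P-values were adjusted by Benjamini-Hochberg over all features, with a threshold of 0.05. Figures were drawn with matplotlib 3.10.9.

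All probe sets under study were named. Of other genes, the 5 most alike by each Pearson measure (with those by Spearman as the alternative) and the highest and lowest late effect in iMEFs of each pathway list were named, and Rdm1 because it shares the U2 probe sets. Members and lists were chosen with earlier results of these data known. Alternatives varied scaling, filter, features, time terms, control, empirical Bayes settings and single arrays.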

Additional observations from a re-analysis of the deposited data

How the results depend on the processing

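Of 34 alternatives 18 moved the iMEF estimates, and the late effect of each of the 10 probe sets was positive under these 18. The other alternatives changed only the error or the features tested. The 18 are not all distinct, since leaving out the fl/fl or the wt/wt array of a time in iMEFs gives the same estimate. Leaving out all arrays of that time gives it as well, where this was done. Over all 34, with such repeats counted each time, 28 of 340 tests passed the threshold in iMEFs. For the mean over both cell types 2 of 330 passed, and in MEFs and for the difference none did. With the 96 h arrays left out 5 of 10 passed in iMEFs (2.25% of all features were called higher). With time common to both cell types 3 of 10 did (0.451%). In the main fit 0.285% of all features were called higher. With the 24 h arrays left out the median was 0.61 in iMEFs and 0.39 for the mean, with the lowest limma adjusted p in iMEFs at 0.856. With 24 h counted as late the medians were 0.25 in iMEFs, 0.20 for the difference and 0.12 for the mean, the 24 h dip then entering the late times. With time common to both cell types the medians were -0.18 in MEFs and 1.51 for the difference, and in fl/fl cells alone -0.19 and 1.51. The cause of these shifts was not tested beyond the arrays named. Relative to the mean of 0 and 24 h, the 72 h median in iMEFs was 1.48 in place of 1.03.

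With each array left out in turn, the number passing ran from 0 to 5 in iMEFs, from 0 to 1 for the mean (U3a, without either MEF array at 48 h) and was 0 to 0 in MEFs and for the difference. The share of all features called with a single array left out is not given here. These counts, and the totals over all alternatives above, therefore cannot be read as particular to these probe sets. The medians ran from 0.61 to 1.53 in iMEFs, from -0.09 to 0.38 in MEFs, from 0.48 to 1.28 for the difference and from 0.40 to 0.87 for the mean. By Spearman's rho in place of Pearson's r, Snord15a and Snora7a stayed among the 5 most alike, with Snord35a, Snora21 and Taf1d as the others. With line means subtracted, the 5 most alike by Spearman's rho were Irx1 (0.932, with a Pearson's r of -0.356 over the 20 arrays), n-R5s136, Snora73a and both Snora3 probe sets. No paired analysis was possible because each line and time holds 1 array, so that replicate numbers pair nothing. The late effect already sets fl/fl against wt/wt arrays of the same time.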
